A study of Mus musculus with 8 samples.

Results

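*Nkx2-5*, *Hopx*, *Mef2a*, *Mef2c*, *Mef2d*, *Hand1* and *Hand2* encode core transcriptional regulators of the developing heart. They are 7 of the 14608 genes in a table of RNA-seq values from the mouse outflow tract (OFT) at embryonic day 11.5 (E11.5). The OFT is the vessel-like exit of the embryonic heart, from which the aortic and pulmonary valves form. The 7 genes were found by their symbols, each of which matched 1 row of the table. They were selected on measured values of these same libraries, with results of the contrast between genotypes known, so their differences between genotypes are given as a description with no p-value, and counts of calls among them stand beside the share of all genes called.

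The table holds 4 libraries labelled control and 4 libraries labelled as double heterozygous for *Mib1V943F* and *Gata6STOP* (*Mib1V943F/+ Gata6STOP/+*, here called mutant). *Mib1V943F* is a missense allele of the ubiquitin ligase that lets NOTCH ligands signal, and *Gata6STOP* is a null allele of a cardiac zinc finger factor. Every library is a pool of tissue from several embryos, 3 individuals by the series description, while the methods of the study describe the pooling differently, so the number of embryos behind a library is unsettled. The control libraries carry the genotype control and titles that begin with WT, and the p-values used below measure the spread between these pools. The level of *Gata6* RNA did not separate the groups, with a range from 236 to 279 CPM (read counts scaled to a common library size) in controls and from 213 to 284 CPM in mutants, so in these libraries it gives no check of the labels.

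NKX2-5 is a homeodomain protein that binds DNA with GATA and T-box partners and is needed for the growth of the heart tube and OFT. HOPX is a small homeodomain protein that does not bind DNA itself and that acts with histone deacetylases and against serum response factor downstream of NKX2-5. MEF2 proteins are MADS-box activators of muscle genes, held back by class II histone deacetylases until calcium signals export these from the nucleus. HAND1 and HAND2 are basic helix-loop-helix proteins that bind E-box DNA with E-proteins, and HAND2 is used in the second heart field, the neural crest and the right ventricle.

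The libraries held between 10669420 and 30469165 reads on the listed genes, with control replicate 2 the shallowest, and 1 read was worth between 0.0325 and 0.0948 CPM. The 7 factors were covered by 661 to 8212 reads per library, which puts the counting error of a single value at 3.89% or less. Control replicate 2 and mutant replicate 2 stood apart over all genes, with median distances of 0.389 and 0.398 log2 units to the other libraries, against 0.271 to 0.316 for the remaining 6. They also had the steepest trends of expression with the GC content of transcripts, at 0.22 and -0.18 log2 units per 10 points of GC percent, opposite in sign. Where removing that trend, or leaving out a library, moved a member's difference most, that value is given beside it. All 24 cardiomyocyte markers, all 15 endocardial and endothelial markers, all 15 cushion mesenchyme markers and all 10 smooth muscle markers of typed lists were in the table. Of 9 pharyngeal endoderm markers, *Foxa1*, *Foxa2*, *Cdh1*, *Epcam*, *Nkx2-1* and *Pax9* were not in it.

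*Nkx2-5* and *Hopx* were the members with the lowest values in the mutant relative to control, and the sequences before their transcription start sites are shown for that reason. *Nkx2-5* (ENSMUSG00000015579) lies on the minus strand of chromosome 17, from 26838664 to 26845009 in GRCm38, and *Hopx* (ENSMUSG00000059325) on the minus strand of chromosome 5, from 77086988 to 77115121. The RefSeq promoter table for GRCm38.p6 had 1 start for *Nkx2-5* and 2 for *Hopx*, and the 250 bases before each start are printed 5′ to 3′ on the minus strand. They span chr17:26841566-26841815 for *Nkx2-5*, chr5:77095268-77095517 for the inner *Hopx* start and chr5:77115124-77115373 for the outer one. Capitals mark matches, on either strand, to an E-box (CANNTG) or to the CArG box that serum response factor binds.
Nkx2-5: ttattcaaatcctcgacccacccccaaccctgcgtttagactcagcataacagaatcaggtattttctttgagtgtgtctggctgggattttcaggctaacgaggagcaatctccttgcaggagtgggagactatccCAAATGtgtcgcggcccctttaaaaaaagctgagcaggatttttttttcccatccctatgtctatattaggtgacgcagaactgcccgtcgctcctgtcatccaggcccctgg
Hopx, inner start: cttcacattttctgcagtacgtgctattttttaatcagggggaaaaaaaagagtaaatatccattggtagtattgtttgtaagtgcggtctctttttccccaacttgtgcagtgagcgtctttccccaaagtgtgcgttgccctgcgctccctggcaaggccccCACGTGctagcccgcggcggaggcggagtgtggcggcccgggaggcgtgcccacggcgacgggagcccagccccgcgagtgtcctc
Hopx, outer start: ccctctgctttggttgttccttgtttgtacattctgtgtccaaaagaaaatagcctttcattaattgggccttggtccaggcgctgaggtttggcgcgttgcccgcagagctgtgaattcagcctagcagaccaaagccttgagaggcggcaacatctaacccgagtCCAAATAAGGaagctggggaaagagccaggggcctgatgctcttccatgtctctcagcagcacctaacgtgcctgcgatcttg

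The *Nkx2-5* window held 1 E-box, starting 113 bases before the start site, and the inner *Hopx* window held 1, starting 86 bases before it. The outer *Hopx* window held 1 CArG box, starting 83 bases before the start site. E-boxes were in 66.2% of the 32851 RefSeq promoter windows of the same length, and CArG boxes in 1.47%. An NKX2-5 element (TNAAGTG, in 10.1% of all windows), a MEF2 element (CTA and TAG with any 4 bases between, in 3.20%) and a GATA element (AGATAAG, in 2.74%) were searched on both strands and were in 0 of the 9 windows of the 6 members with an entry. A match describes letters in a window and not a bound site, and a window without one says nothing about the factor.

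*Hopx* had the largest difference of the 7 factors. Its level was 69.9, 62.7, 66.0 and 55.9 CPM in control replicates 1 to 4 and 45.8, 34.0, 33.9 and 45.9 CPM in mutant replicates 1 to 4. Every mutant library lay below every control library, and the mutant values formed a higher pair, replicates 1 and 4, and a lower pair, replicates 2 and 3. The mean was 63.6 ± 5.94 CPM (SD, n = 4) in controls and 39.9 ± 6.87 CPM (SD, n = 4) in mutants, or 0.627 of the control mean. The log2 difference of mutant minus control was -0.68 (standard error 0.12), and 0.438% of all genes had a lower one. Leaving out each library in turn kept it between -0.75 and -0.60, and removing the GC trend gave -0.72, with groups that still did not overlap. In bulk tissue, fewer cells of the type that expresses a gene and less of its RNA per cell cannot be told apart, here and for every value that follows.

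For *Nkx2-5*, control replicates 1 to 4 had 97.4, 130.3, 109.6 and 92.5 CPM, and mutant replicates 1 to 4 had 81.9, 65.2, 83.0 and 81.8 CPM. The groups did not overlap, control replicate 2 was the highest library and mutant replicate 2 the lowest, and the other 3 mutant libraries were close together. The mean was 107 ± 16.9 CPM (SD, n = 4) in controls and 78.0 ± 8.55 CPM (SD, n = 4) in mutants, or 0.726 of the control mean. The log2 difference was -0.45 (standard error 0.11), and 1.5% of all genes had a lower one.

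The size of the *Nkx2-5* difference moved with the GC trend of the libraries. Its transcripts had a GC content of 67.1%, the highest of the 7 factors, where the median gene had 49.9%. With the trend of each library removed, the log2 difference was -0.28 (standard error 0.05). The spread shrank as well, from SDs of 0.22 and 0.17 log2 units to 0.058 and 0.050 in control and mutant libraries. On that scale *Nkx2-5* was at 6.72, 6.66, 6.65 and 6.58 log2 units in controls and 6.38, 6.35, 6.31 and 6.43 in mutants, and the groups still did not overlap. The difference was -0.36 without control replicate 2, and ran from -0.52 to -0.36 when each library was left out in turn. *Hopx*, with a GC content of 46.4%, showed no such change, and the part of GC content in either result was not tested.

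**Figure D1:**
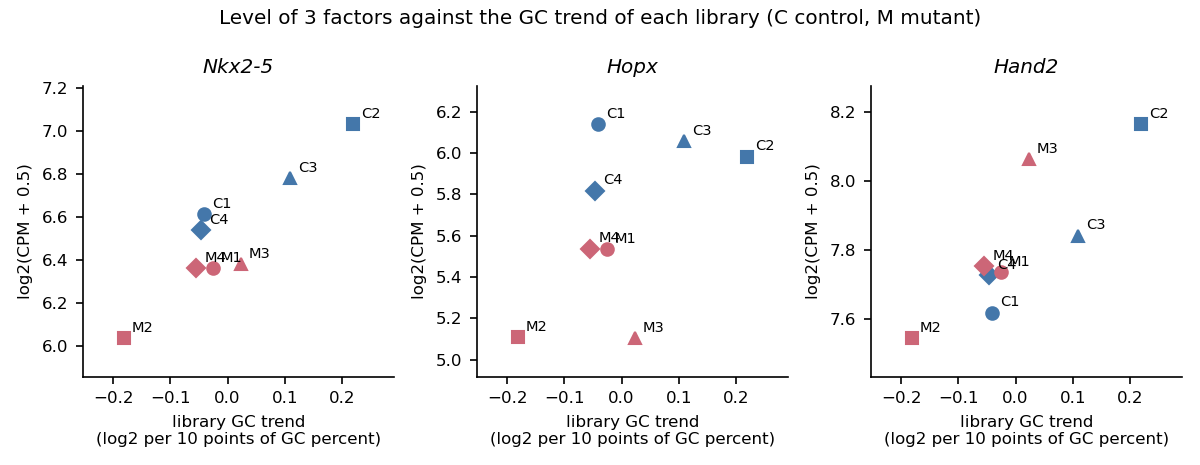
The plot of level against GC trend has the slope of each library with GC content on the x axis (log2 units per 10 points of GC percent) and log2(CPM + 0.5) of *Nkx2-5*, *Hopx* and *Hand2* on the y axis, with 1 point per library (C control, M mutant, numbered by replicate). Control replicate 2 (slope 0.22) and mutant replicate 2 (slope -0.18) hold the highest and the lowest value of *Nkx2-5* and of *Hand2*, whereas for *Hopx* the highest library is control replicate 1.

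The MEF2 genes had smaller differences than *Nkx2-5* and *Hopx*. *Mef2d* (chromosome 3, 88142372 to 88172086, plus strand) encodes a MEF2 protein made in many tissues, and its level was 160.7, 156.1, 156.1 and 151.0 CPM in controls and 138.2, 120.5, 141.5 and 148.7 CPM in mutants. The groups did not overlap, but the highest mutant library, at 148.7 CPM, was close to the lowest control library, at 151.0 CPM. The mean was 156 ± 3.96 CPM (SD, n = 4) against 137 ± 11.98 CPM (SD, n = 4), a log2 difference of -0.19 (standard error 0.07). With the GC trend removed the difference was -0.12 and the groups overlapped.

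*Mef2a* (chromosome 7, 67231163 to 67372858, minus strand), which encodes a MEF2 protein of heart and skeletal muscle, was at 188.7, 146.9, 168.6 and 186.4 CPM in controls and 164.0, 234.1, 183.5 and 186.2 CPM in mutants. Control replicate 2 was the lowest library and mutant replicate 2 the highest, the reverse of *Nkx2-5*, and its transcripts had a GC content of 42.0%. The groups overlapped, with 173 ± 19.4 CPM (SD, n = 4) in controls and 192 ± 29.8 CPM (SD, n = 4) in mutants. The log2 difference was 0.15 (standard error 0.11), 0.05 without mutant replicate 2 and 0.04 with the GC trend removed. *Mef2c* (chromosome 13, 83504034 to 83667080, plus strand), the MEF2 gene required in the anterior second heart field, was at 125.7, 98.9, 95.3 and 109.3 CPM in controls and 111.6, 107.3, 99.8 and 102.8 CPM in mutants. All mutant values lay within the range of the controls, and the means were 107 ± 13.6 CPM (SD, n = 4) and 105 ± 5.17 CPM (SD, n = 4), a log2 difference of -0.02 (standard error 0.09) that was -0.14 with the GC trend removed.

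The summed level of the 3 MEF2 genes, in CPM per kilobase of the longest coding transcript, was 77.1 ± 5.51 (SD, n = 4) in controls and 76.9 ± 3.72 (SD, n = 4) in mutants. Of that sum *Mef2a* took 40.3% ± 2.23 (SD, n = 4) in controls and 44.9% ± 4.79 (SD, n = 4) in mutants, and *Mef2d* took 37.6% ± 2.57 and 33.2% ± 3.92. The share of *Mef2c* was 22.1% ± 1.44 and 21.9% ± 1.65. All 3 shares overlapped between genotypes. The log2 ratio of *Mef2a* to *Mef2d* ran from -0.09 to 0.30 in controls and from 0.25 to 0.96 in mutants, with mutant replicate 2 at 0.96 and the next mutant library at 0.38.

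*Hand1* (chromosome 11, 57828705 to 57832818, minus strand), used in the left ventricle and OFT, was the most variable member. It was at 49.8, 67.3, 56.9 and 50.2 CPM in controls and at 67.2, 32.6, 72.0 and 67.2 CPM in mutants. Mutant replicate 2 was below every control library, while the other 3 mutant libraries were above control replicates 1, 3 and 4. The means were 56.1 ± 8.18 CPM (SD, n = 4) and 59.7 ± 18.2 CPM (SD, n = 4), a log2 difference of 0.04 (standard error 0.21). Without mutant replicate 2 it was 0.30, and with the GC trend removed 0.12. *Hand2* (chromosome 8, 57320983 to 57324633, plus strand) was at 195.9, 286.3, 228.8 and 211.4 CPM in controls and 212.7, 186.1, 266.9 and 215.2 CPM in mutants. Control replicate 2 was the highest library and mutant replicate 2 the lowest, as for *Nkx2-5*. The groups overlapped at 231 ± 39.5 CPM (SD, n = 4) and 220 ± 33.8 CPM (SD, n = 4), with a log2 difference of -0.06 (standard error 0.12) that was 0.05 without control replicate 2 and 0.05 with the GC trend removed.

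The log2 ratio of *Hand1* to *Hand2* was nearly the same in all control libraries, at -2.04 ± 0.054 (SD, n = 4). In mutants it was -1.66, -2.51, -1.89 and -1.68 in replicates 1 to 4. Replicates 1, 3 and 4 lay above all controls and replicate 2 below them, so the groups overlapped.

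**Figure D2:**
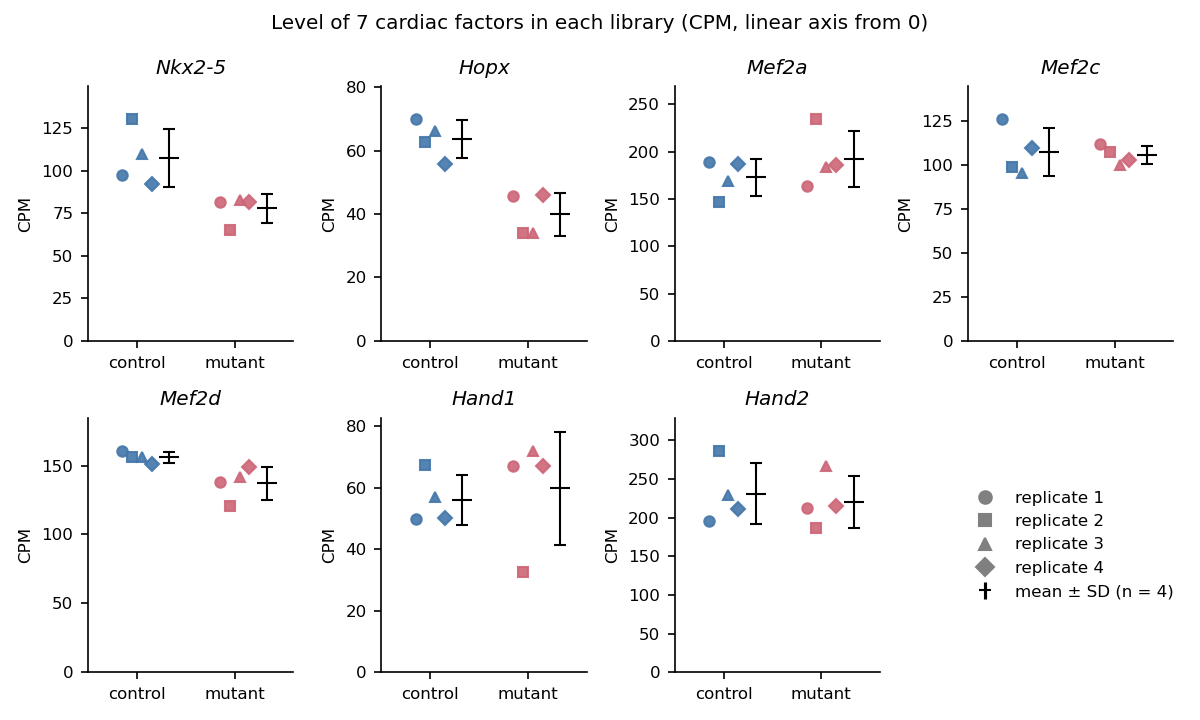
The plot of levels by library shows CPM on a linear y axis from 0 for each of the 7 factors, with 1 symbol per library (control left, mutant right, symbol shape by replicate number) and the mean ± SD (n = 4) beside each group. The groups are apart for *Nkx2-5*, *Hopx* and *Mef2d*, and mutant replicate 2 (square) is the lowest mutant value of *Nkx2-5*, *Mef2d*, *Hand1* and *Hand2* and the highest of *Mef2a*.

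Counted over the members, 3 of 7 had every mutant library below every control library (*Nkx2-5*, *Hopx* and *Mef2d*), where 3.90% of all genes did, and 0 of 7 had the reverse, where 3.20% did. With limma on log2(CPM + 0.5), 0 of 7 were called at a Benjamini-Hochberg adjusted p under 0.05, as were 0% of all genes, whose smallest adjusted p was 0.124. At an unadjusted limma p under 0.05, the same 3 members were lower, where 6.62% of all genes were lower and 5.45% higher. The likelihood ratio test of edgeR on recovered reads called *Nkx2-5* and *Hopx* lower, or 2 of 7, against 0.554% of all genes lower and 0.178% higher. *Nkx2-5* was not called without control replicate 2 or 3 or mutant replicate 2 or 3. The median log2 difference was -0.06 over the members and 0.001 over all genes. Because the members were picked with this contrast known, nothing is read from these counts.

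The levels of the genes can be compared per length of transcript. Over the 8 libraries *Hand2* was highest at a mean of 95.9 CPM per kilobase of the longest coding transcript, followed by *Nkx2-5* at 60.8 and *Hopx* at 41.1. *Mef2a* at 32.9, *Hand1* at 30.4, *Mef2d* at 27.1 and *Mef2c* at 16.9 CPM per kilobase came after these. *Hand2* exceeded *Nkx2-5* and *Nkx2-5* exceeded *Hopx* in 8 of 8 libraries, and *Mef2d* exceeded *Mef2c* in 8 of 8, the only neighbours whose ranges were apart. *Mef2a* exceeded *Hand1* in 4 libraries and *Hand1* exceeded *Mef2d* in 5, so these neighbours did not differ beyond their spread. *Hopx* exceeded *Mef2a* in 6 libraries. It stood above *Mef2a* in controls, at 50.5 ± 4.71 against 31.2 ± 3.50 CPM per kilobase (SD, n = 4), and not in mutants, at 31.6 ± 5.45 against 34.7 ± 5.38. With the union of all exons as the length, *Hopx* (22.3 to 46.1 CPM per kilobase) and *Mef2a* (10.01 to 15.9) did not overlap, and *Mef2a* moved from rank 4 to rank 6 and *Hand1* and *Mef2d* to ranks 4 and 5, since the exons of *Mef2a* span 14681 bases against 5538 in its longest coding transcript.

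The spread between replicates differed among the factors. Within groups, the SD of log2 values was 0.40 for *Hand1*, 0.23 for *Hand2*, 0.20 for *Hopx*, 0.19 for *Nkx2-5*, 0.19 for *Mef2a*, 0.14 for *Mef2c* and 0.095 for *Mef2d*. Over the 6332 genes with a mean between 30 and 300 CPM the median was 0.12. The biological coefficient of variation ran from 8.06% (*Mef2d*) to 19.9% (*Hand1*), where the median of those genes was 8.78%. *Hand1* lay at percentile 99.3 of these genes by its SD, *Hand2* at 95.5, *Hopx* at 91.3 and *Nkx2-5* at 90.2, while *Mef2d* lay at 31.4. For some factors this moved with the GC trend or with the libraries numbered 2. With the GC trend removed, *Nkx2-5* had an SD of 0.054 (percentile 11.7), *Hand2* 0.14 (percentile 80.5) and *Mef2a* 0.12 (percentile 70.4), while *Hopx* had 0.21 (percentile 95.8) and *Hand1* 0.34 (percentile 98.97). The SD of *Hand1* was 0.16 without mutant replicate 2, and 0.085 (percentile 51.3) without control replicate 2 as well. Without both of these libraries *Nkx2-5* lay at percentile 54.9, *Mef2a* at 60.0 and *Mef2d* at 14.7. *Hopx* stayed high at 97.5 and *Hand2* at 90.6, and *Mef2c* rose from percentile 63.9 to 90.6.

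The members are active in the myocardium among other tissues, and the markers of cardiomyocytes had lower values in the mutant libraries. All 24 cardiomyocyte markers had negative log2 differences, with a median of -0.33, and their summed level ran from 33057 to 38833 CPM in controls and from 26339 to 30845 CPM in mutants, with no overlap. In limma 0 of 24 were called and 23 were lower at an unadjusted p under 0.05 (6.62% of all genes), while the likelihood ratio test called 9 lower (0.554% of all genes). Among them *Myl2*, the ventricular regulatory light chain, was at 2063 ± 267 and 1395 ± 143 CPM (SD, n = 4) in controls and mutants, *Myl3*, a ventricular essential light chain, at 1304 ± 98.6 and 1004 ± 45.2 CPM, and *Tcap*, a Z-disc protein, at 37.9 ± 2.69 and 29.4 ± 1.77 CPM. The mean log2 level of the 24 markers was 9.34 ± 0.12 (SD, n = 4) in controls and 8.90 ± 0.18 (SD, n = 4) in mutants, a difference of -0.44. *Nppa* (-2.09, with mutant libraries from 5.67 to 109 CPM) and *Nppb* (-1.24) had the largest differences of the 24 and pull this mean below the median. The marker mean was higher in mutant replicates 1 and 4 (8.98, 9.11) than in 2 and 3 (8.72, 8.77), as for *Hopx*. The part of the lower marker level in the values of *Nkx2-5* and *Hopx* was not tested.

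Setting the 7 factors against that mean in each library takes the same -0.44 from the difference of every factor. Their order and spacing are therefore those of the log2 CPM values, and a factor with no difference there would lie above 0 on this scale. *Nkx2-5* was -2.60 ± 0.23 log2 units from the marker mean in controls and -2.61 ± 0.16 in mutants (SD, n = 4), a difference of -0.01 with overlapping groups. This was -0.10 against the summed markers and 0.13 with the GC trend removed. Against the markers outside the list of cardiac targets, which leave out *Nppa* and *Nppb*, it was -0.14. *Hopx* was at -3.33, -3.35, -3.33 and -3.36 log2 units in controls (SD 0.018, n = 4), and at -3.45, -3.61, -3.67 and -3.58 in mutants. It was the only factor below its controls in every mutant library on this scale, with a difference of -0.23 that ran from -0.28 to -0.20 when each library was left out in turn. The difference was -0.32 against the summed markers, -0.36 against the markers outside the target list and -0.31 with the GC trend removed.

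The other 5 factors were higher relative to the markers, since their own levels moved less than the markers did. The difference was 0.59 for *Mef2a* and 0.26 for *Mef2d*, whose groups did not overlap, and 0.48 for *Hand1*, 0.43 for *Mef2c* and 0.38 for *Hand2*, whose groups overlapped. The groups of *Mef2a* nearly met, with control replicate 4 at -1.64 and mutant replicate 1 at -1.62. Those of *Mef2d* were also close, with control replicate 4 at -1.94 and mutant replicate 4 at -1.89. *Mef2a* was at 0.43 without mutant replicate 2 and at 0.45 with the GC trend removed, where its groups still did not overlap. With the GC trend removed *Mef2c* was at 0.27. Against the markers outside the target list *Hand2* was at 0.25, and it was at 0.24 without mutant replicate 3. *Hand1* was at 0.69 without mutant replicate 2 and at 0.33 without mutant replicate 3. *Mef2d* thus lay below controls as a share of all reads and above them relative to the markers, where the difference was 0.13 against the markers outside the target list.

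**Figure D3:**
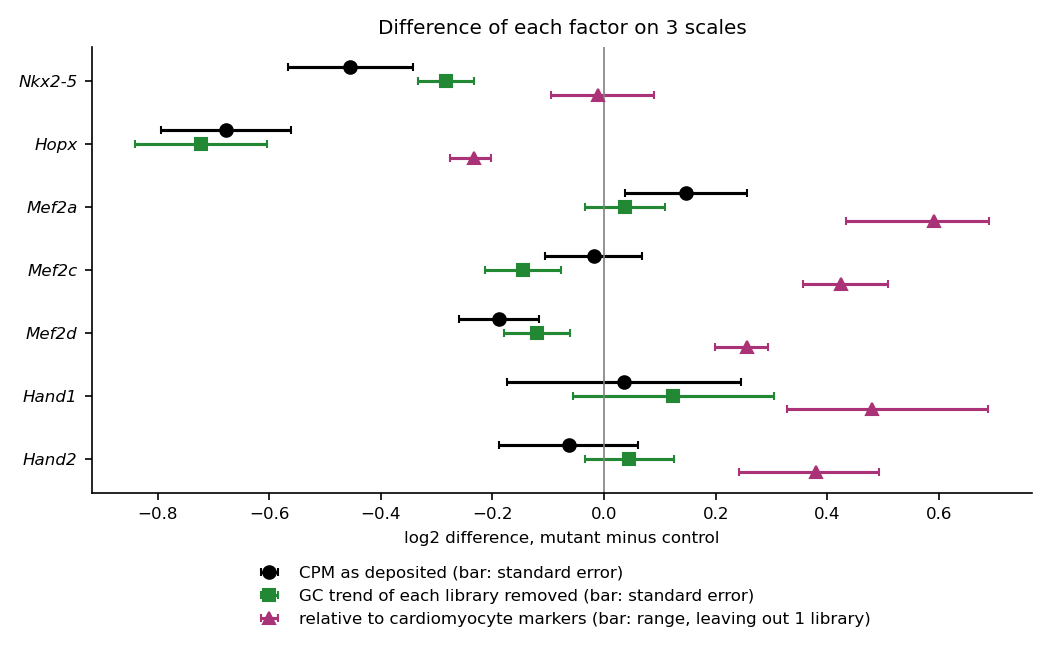
The plot of differences on 3 scales has the log2 difference (mutant minus control) on the x axis and the 7 factors on the y axis. Circles give CPM as deposited and squares CPM with the GC trend of each library removed (bars are standard errors), and triangles give the value relative to the mean of 24 cardiomyocyte markers (bars span the range when each library is left out). *Hopx* is below 0 on all 3 scales, *Nkx2-5* moves from -0.45 to -0.28 to -0.01, and the 5 MEF2 and HAND genes are above 0 relative to the markers. Each triangle is shifted from its circle by the same amount, the difference of the marker mean. Against the markers outside the target list, which are not plotted, the last value of *Nkx2-5* was -0.14.

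Typed lists of relatives, partners, regulators and targets of the factors held 62 distinct genes of the table. In limma 0 of them were called in any list. Of 5 close relatives, *Nkx2-6*, *Twist1* and *Twist2* were in the table and 0 of 3 passed any test used. *Twist1*, a basic helix-loop-helix factor of mesenchyme, was at 100.1 ± 19.2 and 102.8 ± 7.66 CPM (SD, n = 4) in controls and mutants. *Nkx2-6*, a relative of *Nkx2-5* in pharyngeal tissue, was near the low end at 2.45 ± 0.55 and 2.61 ± 0.71 CPM, and *Twist2* was at 9.44 ± 2.38 and 10.1 ± 2.87 CPM.

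Of 14 partner genes of NKX2-5 and HOPX, 0 were called by the likelihood ratio test. At an unadjusted limma p under 0.05, 1 was higher (5.45% of all genes) and 2 were lower (6.62% of all genes). *Hdac2*, a histone deacetylase that HOPX recruits, was at 178 ± 12.7 CPM in controls and 213 ± 18.5 CPM in mutants (SD, n = 4; adjusted p = 0.270 from limma), with groups that did not overlap. *Srf*, the factor that HOPX counteracts, was at 108 ± 16.3 and 87.5 ± 5.81 CPM, and *Myocd*, its muscle coactivator, at 52.9 ± 5.03 and 43.9 ± 4.02 CPM (adjusted p = 0.322 and 0.313 from limma). *Tbx5*, a T-box partner of NKX2-5, was at 17.0 ± 3.08 and 12.97 ± 5.30 CPM with overlapping groups. The median log2 difference of the list was -0.005.

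Of 20 regulators of MEF2 proteins, 0 were called by the likelihood ratio test, and the median log2 difference was -0.04. At an unadjusted limma p under 0.05, 2 of the 20 were lower, where 6.62% of all genes were. *Camk2a*, a calcium-dependent kinase upstream of class II histone deacetylases, was at 101.3 ± 11.2 CPM in controls and 75.8 ± 13.6 CPM in mutants (SD, n = 4; adjusted p = 0.267 from limma). *Hdac5*, one of those deacetylases, was at 156 ± 15.5 and 134 ± 11.7 CPM (adjusted p = 0.364 from limma). Neither overlapped between groups, but for *Hdac5* they nearly met, with the lowest control at 142.98 CPM and the highest mutant at 142.93 CPM. In this list 2 genes were lower without overlap and 1 (*Prkd3*) higher, where 3.90% and 3.20% of all genes were. *Prkd3*, of the protein kinase D family, was at 116 ± 4.94 and 134 ± 18.9 CPM, and *Ppp3ca*, a calcineurin catalytic subunit, at 125 ± 11.2 and 138.0 ± 8.79 CPM (adjusted p = 0.421 and 0.465 from limma). For *Prkd3*, mutant replicate 2 was at 161.9 CPM, while the other mutant libraries were at 121.2 to 125.8 CPM, close to the highest control at 120.9 CPM.

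The 8 partners and inhibitors of HAND proteins had a median log2 difference of 0.16. In the likelihood ratio test 0 of 8 were called, and 4 were higher at an unadjusted limma p under 0.05, where 5.45% of all genes were. Their summed level ran from 918 to 1035 CPM in controls and from 1059 to 1138 CPM in mutants, without overlap. *Id4* was at 11.4 ± 2.19 CPM in controls and 15.4 ± 0.897 CPM in mutants (SD, n = 4), *Id1* at 77.6 ± 9.65 and 91.6 ± 5.72 CPM and *Id2* at 203 ± 17.3 and 227 ± 7.18 CPM, with adjusted p = 0.270, 0.351 and 0.402 from limma. ID proteins take up E-proteins and so keep them from HAND proteins. *Tcf12*, an E-protein, was at 162 ± 9.73 and 201 ± 45.4 CPM (adjusted p = 0.393 from limma). Mutant replicate 2 was at 269 CPM, while mutant replicates 1, 3 and 4 were at 172.7, 182.8 and 181.1 CPM, above the highest control at 170.6 CPM.

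The last list holds genes typed as cardiac targets of the factors. Of 17 in the table, 16 had negative log2 differences with a median of -0.44, where 49.6% of all genes had negative ones, and 6 had mutant libraries all below the controls, where 3.90% of all genes did. Limma called 0 of 17 and had 11 lower at an unadjusted p under 0.05 (6.62% of all genes), and the likelihood ratio test called 5 lower (0.554% of all genes), among them *Irx4*, *Myl2*, *Hspb7* and *Mb*. *Irx4*, a ventricular homeobox gene, was at 46.8 ± 6.33 CPM in controls and 27.6 ± 4.91 CPM in mutants (SD, n = 4), with a log2 difference of -0.76 (adjusted p = 0.124 from limma and 0.000213 from the likelihood ratio test of edgeR). *Myl2*, given above, had -0.56 (adjusted p = 0.142 from limma and 0.000655 from edgeR). *Hspb7*, a cardiac small heat shock protein, was at 575 ± 37.7 and 445 ± 54.4 CPM (adjusted p = 0.228 from limma and 0.0437 from edgeR). Of the 17 targets 5 are also in the cardiomyocyte list, so the lists are not separate evidence.

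**Figure D4:**
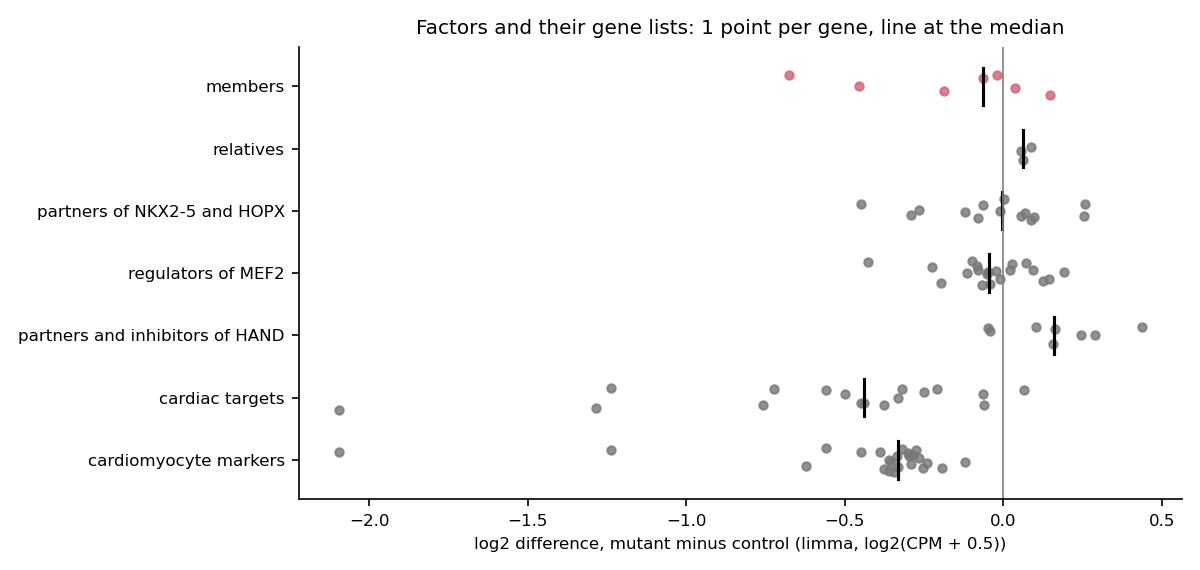
The plot of gene lists has the limma log2 difference (mutant minus control) on the x axis and the 7 members, the 5 pathway lists and the cardiomyocyte markers on the y axis, with 1 point per gene and a line at the median (vertical jitter only separates points). The medians of the relatives (0.06), the partners of NKX2-5 and HOPX (-0.005) and the MEF2 regulators (-0.04) are near 0, those of the targets (-0.44) and cardiomyocyte markers (-0.33) are below it, and that of the HAND list (0.16) is above it.

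Of the marker lists of other cell types, 1 had summed levels that did not overlap. Of 12 second heart field and pharyngeal markers, 8 were in the table, with a median log2 difference of 0.61 and summed levels from 105 to 115 CPM in controls and from 121 to 175 CPM in mutants, without overlap. The likelihood ratio test called 2 of these 8 higher (0.178% of all genes) and limma 0. *Hand2*, *Mef2c* and *Nkx2-5* are also used in second heart field cells, and the part of this list in their values was not tested. The summed levels of the endothelial, cushion, smooth muscle, neural crest, epicardial, endodermal, erythroid and macrophage lists overlapped between the groups. Of 9 neural crest genes in the table, the likelihood ratio test called 1 higher and 1 lower (0.178% and 0.554% of all genes). At an unadjusted limma p under 0.05, 3 of 15 endothelial, 3 of 13 macrophage and 1 of 10 epicardial genes were lower (6.62% of all genes). For smooth muscle, the mean of log2 values centred on each gene did not overlap, from -0.12 to 0.02 in controls and from 0.04 to 0.10 in mutants. The median log2 difference of its 10 genes was only 0.03, and 4 of them had negative ones. Limma called 0 of the 10, with 3 higher at an unadjusted p under 0.05 (5.45% of all genes). The likelihood ratio test called 1 higher (0.178% of all genes). That was *Rgs5*, a pericyte and smooth muscle gene, at 243 ± 22.2 CPM in controls and 362 ± 58.1 CPM in mutants (SD, n = 4; adjusted p = 0.142 from limma and 0.00142 from edgeR). The part of the smooth muscle genes in the members' values was not tested.

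The genes whose profiles over the 8 libraries were most like those of the 3 members that varied most were found by the root mean square difference of log2 values centred on each gene, among the 11644 genes that averaged 5 CPM or more. Closest to *Nkx2-5* were *Vegfb* (0.042 log2 units), *Hspb1* (0.054) and *Chchd10* (0.059), whose transcripts have GC contents of 62.6%, 61.7% and 58.2%. Closest to *Hopx* were *Emilin2* (0.066), *Tnni2* (0.11) and *Ccdc3* (0.11), with GC contents of 56.4%, 56.4% and 52.6%. *Emilin2* was at 170, 140, 136 and 125 CPM in controls and 106, 77.2, 80.4 and 100.4 CPM in mutants, with replicates 2 and 3 the lower mutant pair as for *Hopx*. Closest to *Hand1* were *B3gnt8* (0.12), *Adamts4* (0.12) and *Sost* (0.14), all lowest in mutant replicate 2. Their GC contents were 60.7%, 55.2% and 57.2%, so the neighbours of all 3 members lay above the median gene at 49.9%. The likeness is a description over 8 libraries that share depth and base composition.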

How the data were processed

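Poly-A RNA of pooled OFT at E11.5 was sequenced from strand-specific libraries, and all 8 libraries were used. Per the labels and the methods of the study, the authors trimmed adapters with cutadapt, quantified reads with RSEM on GRCm38, filtered low genes and normalized with edgeR. Deposited values are CPM over library sizes that the authors scaled by TMM (0 columns were left out). In each of the 8 columns 100% of the values are whole multiples of 1 step, within a tolerance of 1e-06. The step was found from the gaps between values, and in control replicates 3 and 4 and mutant replicates 1 and 4 no gene is at a single read, so there the step rests on those gaps alone. The reads so recovered entered the count tests, which are alternatives here.

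From the CPM, log2(CPM + 0.5) was fitted in limma 3.58.1 (R 4.3.3; lmFit, then eBayes with trend), two-sided, with Benjamini-Hochberg adjustment over 14608 genes and a threshold of 0.05. The pseudocount understates differences of low genes. Depth limits no member, since each has at least 661 reads per library. Recovered reads were tested with the likelihood ratio and quasi-likelihood tests of edgeR 4.0.16 and with DESeq2 1.42.0, and each of these fits was tested on simulated data, where all made more false calls than the threshold sets, the likelihood ratio test and DESeq2 the most. The GC trend was removed per library over the 14594 genes with a GC content, from GENCODE transcripts of GRCm38. Between replicates, the chi-square per gene was at least 6.67, so no library repeats another.

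Members and lists were chosen with earlier results of these data known. Named genes are the members, the up to 4 genes of each pathway list and up to 3 cardiomyocyte markers with the smallest unadjusted limma p, and for members whose SD over 8 libraries is above 0.25 log2 units the 3 closest profiles. *Mb*, *Nppa*, *Nppb*, *Rgs5*, *Gata6* and the markers not in the table were named outside this rule, after values were seen. A gene that the rule selected among the cardiac targets is not reported here. Lists were not tested as sets. *Mkl1* and *Mkl2* are older names of *Mrtfa* and *Mrtfb*; *Nkx2-3*, *Mef2b* and *Xirp2* were not in the table. *Hand1* had no promoter entry. Protein sequences were not used here. Alternatives were other pseudocounts, filters, scalings, tests, the replicate block, GC removal and leaving out each library.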

Additional observations from a re-analysis of the deposited data

Results flagged for a closer look

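Of the 14 groups of 4 libraries (7 factors in each genotype), 2 had a value far from the others, by Dixon's criterion on the gap over the range, and chance flags about 1 in 20 such groups. Both values are in mutant replicate 2. *Nkx2-5* was at 65.2 CPM there, against 81.8 to 83.0 CPM in the other mutant libraries, with a gap of 0.94 of the range. *Hand1* was at 32.6 CPM there, against 67.2 to 72.0 CPM, with a gap of 0.88 of the range. With the GC trend removed, *Nkx2-5* in mutant replicate 2 was at 6.35 log2 units, within the 6.31 to 6.43 of the other mutant libraries, while *Hand1* was at 5.19 against 6.09 to 6.16.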

How the results depend on the processing

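Limma called 0 genes and 0 members under every pseudocount, filter, scaling, replicate block, GC removal and library left out, and the quasi-likelihood test called 0. The edgeR likelihood ratio test called 107 genes (26 higher, 81 lower), 5 of the cardiac targets and 2 members, and DESeq2 called 194 genes (47 higher), 6 targets and 2 members; the cause was not tested. Leaving out each library in turn, a choice made after seeing the data, moved the likelihood ratio calls between 24 (without control replicate 3) and 217 (without control replicate 4), those among the targets between 2 and 9, those among the members between 1 and 2, and those among NKX2-5 and HOPX partners, MEF2 regulators and HAND partners between 0 and 1, with 0 among the relatives. The counts were also over 1.5 times lower without control replicate 1 (51), control replicate 2 (46) or mutant replicate 3 (37). The deviations of same-numbered libraries had correlations of 0.035, -0.185, 0.027 and -0.045, where differently numbered ones ran from -0.22 to 0.25. These values show no pairing by number, but a shared effect weaker than that range could not be seen. The replicate block gave 0 calls, and in this balanced design it cannot change the members' differences.

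Of the members' 224 values under alternatives, 220 moved by less than the spread between replicates. These 220 include the filter on mean level and the replicate block, which cannot move a member's difference. They also include *Nkx2-5* going from -0.45 to -0.28 with the GC trend removed. The other 4 were relative to cardiomyocyte markers: *Hopx* at -0.32 (summed markers), -0.36 (markers outside the target list) and -0.31 (GC trend removed, added after seeing the data), and *Mef2d* at 0.13 (markers outside the target list). The cause was not tested. The sign changed under some alternatives for *Mef2c*, *Hand1* and *Hand2*, whose differences are smaller than their standard errors, and for *Nkx2-5* relative to the markers. Depth limits none of the members.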
